A study of Mus musculus with 9 samples.

Results

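Lewis lung carcinoma (LLC) cells, a tumour cell line derived from mouse lung, were compared after growth in medium from GM-BMDM and in medium from M-BMDM, neither of which had met tunicamycin. The contrast took 2 of the 9 libraries of the series, 1 per medium, and was read over 11190 of the 21936 genes listed for LLC cells. These are the genes with a mean of at least 1 CPM (reads scaled by TMM to a common library size) over the 5 LLC libraries. Actn2 lay just inside that minimum, and Klf4 lay just outside it. RNA was sequenced from cultures of strain C57BL, 5 of them LLC cells and 4 macrophages grown from bone marrow (BMDM). The macrophages came in 2 kinds, labelled GM-BMDM and M-BMDM, and how each kind was grown is not spelled out in the sources used here.

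The LLC groups were as follows, with 1 library each. Unstressed GM medium had been conditioned for 16 h by GM-BMDM kept without tunicamycin, and LLC cells spent 24 h in it. Unstressed M medium came from M-BMDM handled alike. Stressed GM medium and stressed M medium came from macrophages given tunicamycin for 12 h, a drug that blocks protein N-glycosylation and so strains the endoplasmic reticulum (ER), and then washed before fresh medium with serum was added. Untreated LLC cells had no macrophage medium, and how they were fed is not given in the sources used here. Reads assigned to genes totalled 15423518 with unstressed GM medium and 15291644 with unstressed M medium, and between 15020068 and 17128471 over the 5 LLC libraries. The 10 most abundant genes took 5.61% of reads with unstressed GM medium and 5.50% with unstressed M medium, and mitochondrial genes took 2.35% with GM medium and 2.27% with M medium.

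Medium conditioned by macrophages carries the cytokines, growth factors, enzymes and metabolites that the macrophages release and lacks what they consumed. A tumour cell reads such signals through surface receptors and adjusts programmes such as extracellular matrix production, chemokine output, amino acid supply and the degradation of material in lysosomes. Since neither medium came from stressed macrophages, the contrast gives the baseline difference between both kinds of medium in a study of ER stress passed from macrophages to tumour cells.

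The label of the cells was checked against markers. The keratin Krt8, an intermediate filament of simple epithelia, stood at 494 CPM in GM medium and 485 CPM in M medium, while only 2 of 12 epithelial markers passed the minimum and the adhesion protein gene Epcam was at 0.195 CPM in GM medium and 0 in M medium. The mesenchymal receptor gene Pdgfra was at 105 CPM in GM medium and 89.9 CPM in M medium. Of 22 macrophage markers, 3 passed the minimum and 12 were at 0 in all 5 LLC libraries, among them Adgre1, Ptprc and Mrc1. Among markers of other cells, 1 of 13 for neutrophils, 0 of 12 for lymphocytes, 1 of 10 for mast cells and related granulocytes, 3 of 9 for endothelium and 1 of 8 for erythroid cells passed. Summed over the list, macrophage markers came to 15.5 CPM with GM medium, 19.3 CPM with M medium and 26.3 CPM in untreated cells, so cultures that had met no macrophage medium held the most. Lyz2, which made up 34953 CPM in untreated GM-BMDM and 39136 CPM in untreated M-BMDM, was at 2.73 CPM in LLC cells with GM medium, 3.29 CPM with M medium and 5.01 CPM without either.

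LLC cells in GM and M medium were close to each other. The median difference, log2(CPM + 1) in GM medium minus that in M medium, was 0.01 over all genes compared, and 95% of genes lay between -0.45 and 0.42. A difference of at least 1, which is 2-fold on this scale, was found for 14 genes higher in GM medium (0.125% of genes compared) and 7 genes lower in GM medium (0.0626%). All of these are annotated as protein-coding. At 1.5-fold, 101 genes were higher (0.903%) and 113 were lower (1.01%). With 1 library per medium there is no replicate check of these differences and no test of them, and the folds below carry exact Clopper-Pearson 95% intervals that cover counting error only. In these bulk libraries a lower level per cell and fewer cells with the transcript cannot be told apart.

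**Figure D1:**
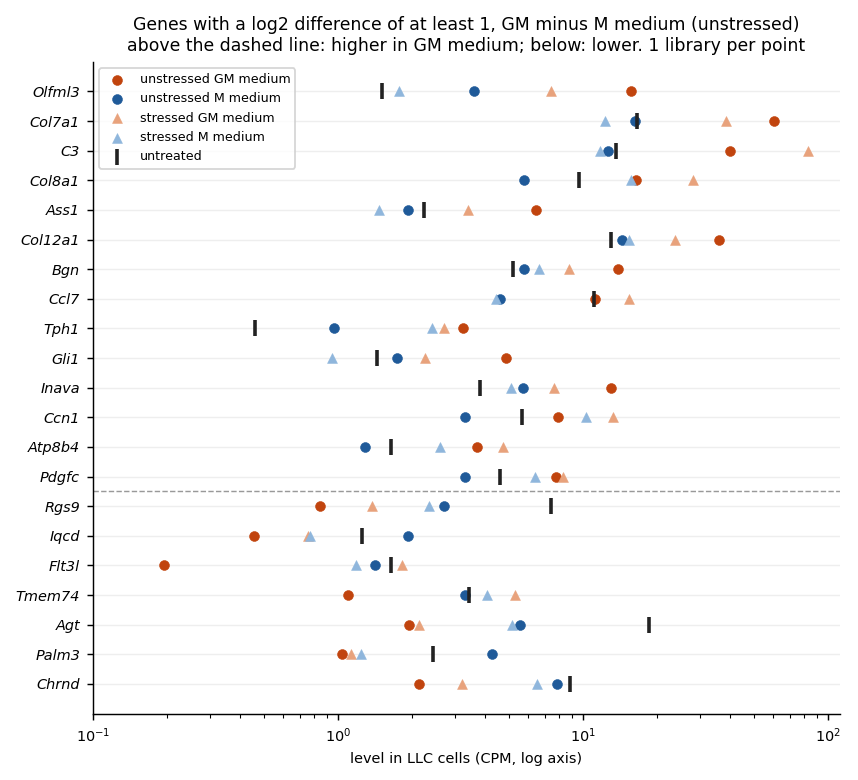
Level of each of the 14 genes higher and 7 genes lower in unstressed GM medium than in unstressed M medium, in CPM on a log axis, in all 5 LLC libraries. Circles are unstressed media, triangles stressed media, the upright bar the untreated library, and each symbol is 1 library. The genes higher in GM medium run up to 60.1 CPM, while 5 of the 7 lower ones stay under 5 CPM in both unstressed media.

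The genes higher in GM medium were led by secreted and matrix proteins. Olfml3, a secreted olfactomedin-domain glycoprotein, had 15.7 CPM in unstressed GM medium and 3.61 CPM in unstressed M medium, 7.43 CPM in stressed GM medium and 1.77 CPM in stressed M medium, and 1.51 CPM in untreated cells. Both GM libraries were above all others, and the fold between the unstressed media was 4.33 (interval 3.23 to 5.91). Col7a1, the collagen of anchoring fibrils beneath epithelia, lies on chromosome 9 from 108953586 to 108984875 (GRCm38, plus strand). It had 60.1 CPM in unstressed GM medium against 16.4 CPM in unstressed M medium, 38.5 CPM in stressed GM medium against 12.4 CPM in stressed M medium, and 16.6 CPM in untreated cells. M medium thus left it at the untreated level, and the unstressed fold was 3.67 (3.19 to 4.23).

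Col8a1, a short-chain network collagen, stood at 16.4 CPM in unstressed GM medium and 5.74 CPM in unstressed M medium, at 28.1 CPM and 15.7 CPM in stressed GM and stressed M medium, and at 9.68 CPM in untreated cells. The untreated library lay between the unstressed media, whose ratio was 2.86 (2.24 to 3.69). Col12a1, a collagen that binds to the surface of collagen I fibrils, was at 36.0 CPM in unstressed GM medium and 14.5 CPM in unstressed M medium, at 23.9 CPM and 15.5 CPM in stressed GM and stressed M medium, and at 13.0 CPM in untreated cells. Its 2 GM libraries were the 2 highest, with an unstressed fold of 2.48 (2.12 to 2.91). Bgn, the small matrix proteoglycan biglycan, was at 14.0 CPM and 5.74 CPM in unstressed GM and unstressed M medium, a fold of 2.43 (1.89 to 3.15), at 8.82 CPM and 6.62 CPM in stressed GM and stressed M medium, and at 5.20 CPM in untreated cells. Ccn1, a matricellular protein that binds integrins, was at 7.93 CPM in unstressed GM medium and 3.29 CPM in unstressed M medium, a fold of 2.41 (1.72 to 3.41). Its levels in the stressed media, 13.2 CPM with GM medium and 10.3 CPM with M medium, were both above its unstressed ones.

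Inflammatory and growth signals were also among the 14. C3, the central complement component, had 39.8 CPM in unstressed GM medium and 12.6 CPM in unstressed M medium, 82.7 CPM in stressed GM medium and 11.7 CPM in stressed M medium, and 13.6 CPM in untreated cells. Both M media left it near the untreated level, and the unstressed fold was 3.14 (2.67 to 3.71). Ccl7, a chemokine that attracts monocytes, was at 11.2 CPM and 4.58 CPM in unstressed GM and unstressed M medium, at 15.5 CPM and 4.44 CPM in stressed GM and stressed M medium, and at 11.1 CPM in untreated cells. Here GM medium matched the untreated library and M medium lay below it, with a fold between unstressed media of 2.44 (1.84 to 3.26). Pdgfc, a ligand of platelet-derived growth factor receptors, was at 7.80 CPM and 3.29 CPM in unstressed GM and unstressed M medium, a fold of 2.37 (1.69 to 3.36), beside 4.61 CPM in untreated cells.

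The remaining genes of this group have unrelated roles. Ass1, the argininosuccinate synthase that makes arginine from citrulline, had 6.43 CPM in unstressed GM medium and 1.94 CPM in unstressed M medium (fold 3.32, 2.19 to 5.18), 3.40 CPM and 1.48 CPM in stressed GM and stressed M medium, and 2.24 CPM in untreated cells. Gli1, a transcription factor and target gene of Hedgehog signalling, had 4.87 CPM in unstressed GM medium and 1.74 CPM in unstressed M medium (fold 2.80, 1.78 to 4.52). Tph1, a tryptophan hydroxylase of serotonin synthesis, had 3.25 CPM in unstressed GM medium, 0.968 CPM in unstressed M medium and 0.461 CPM in untreated cells. Only its unstressed pair was far apart, since the stressed media gave 2.71 CPM with GM medium and 2.42 CPM with M medium. Inava, a regulator of innate immune signalling and epithelial junctions, was at 13.1 CPM in unstressed GM medium and 5.68 CPM in unstressed M medium. Atp8b4, a lipid-transporting ATPase, was at 3.70 CPM in unstressed GM medium and 1.29 CPM in unstressed M medium.

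All 14 genes were above the untreated level in GM medium, by a median log2 difference of 1.27. In M medium 6 of the 14 were above and 8 below it, with a median of -0.06. Of all 11190 genes compared, 5939 were above the untreated level in GM medium and 5889 in M medium. The 14 were picked for a high level in GM medium relative to M medium, which by itself favours this order. These 2 sets of differences also share the untreated library.

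**Figure D2:**
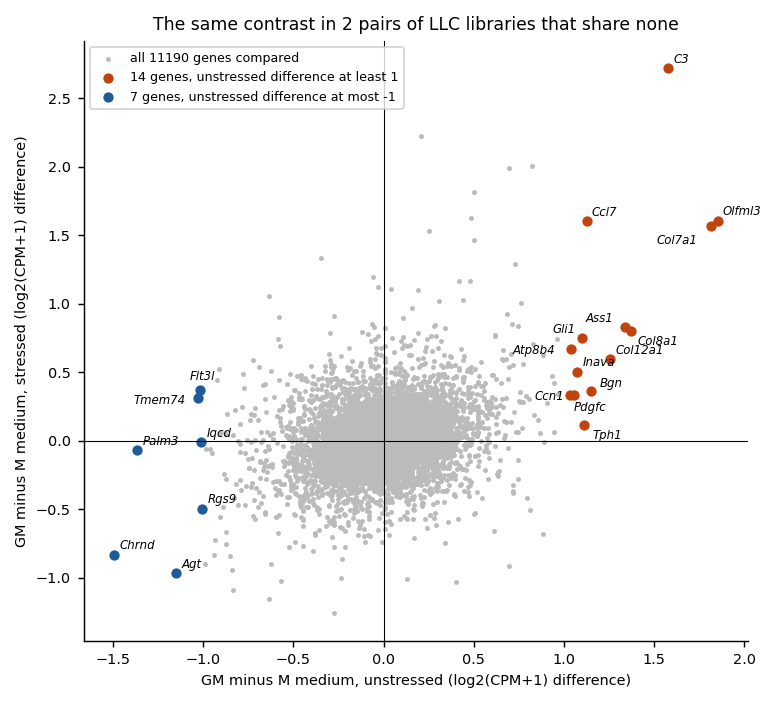
Difference between GM and M medium, as log2(CPM + 1), in the unstressed pair of LLC libraries on the horizontal axis and in the stressed pair on the vertical axis. Each grey point is 1 of 11190 genes, with the 14 genes at 1 or more in orange and the 7 at -1 or less in blue. All 14 orange genes lie above 0 on the vertical axis, and 5 of the 7 blue ones lie below it.

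The same contrast in stressed medium used 2 other LLC libraries. All 14 genes higher in unstressed GM medium were above 0 there too, as were 48.5% of all genes, with a median of 0.71, and 4 of them (Olfml3, Col7a1, C3 and Ccl7) were again at 1 or more, a level reached by 23 of all genes (0.206%). For 12 of the 14 the stressed difference was the smaller, the exceptions being C3, at 2.72 against 1.58 unstressed, and Ccl7, at 1.60 against 1.13. The 14 were picked for a large unstressed difference, which by itself favours a smaller one in another pair. Over all genes compared, the sign was shared in 58.5%, and the differences correlated weakly (Pearson's r 0.27, Spearman's rho 0.23, across 11190 genes of the same libraries, given as a description).

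A fit across all 5 LLC libraries, with terms for the kind of medium, for tunicamycin and for any macrophage medium, gave 1 difference per gene for both pairs together, weighted by their reads. Its edgeR quasi-likelihood test called 247 genes higher in GM medium (2.21%) and 260 lower (2.32%) at an adjusted p of 0.05. It left 1 residual degree of freedom, and its spread was borrowed across genes at a coefficient of variation of 4.28%, so its p-values are only as good as that shared spread. DESeq2 on the same design called 17 higher (0.152%) and 14 lower (0.125%), all of them called by edgeR as well. Since the fit includes both unstressed libraries, it is neither independent of the unstressed difference nor a test of it alone. Of the 14 genes, 13 were called higher by edgeR and 6 by DESeq2 (Olfml3, Col7a1, C3, Col8a1, Col12a1 and Ccl7). Tph1 was the exception, at 0.82 ± 0.34 (SE, log2) with an adjusted p of 0.19 in edgeR.

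Collagen genes as a family were higher in GM medium. Collagens are the fibres, networks and filaments that give the matrix its strength, and LLC cells made many of them: Col3a1 reached 168 and 149 FPKM (reads scaled to gene length and sequencing depth, as deposited) in GM and M medium, against 5.83 and 1.61 FPKM for Col7a1. Of 20 chains listed, 16 passed the minimum, and 15 of these 16 were above 0, beside 52.1% of all genes compared. Their median difference was 0.29. The edgeR fit called 9 of the 16 higher and 0 lower, beside 2.21% and 2.32% of all genes. DESeq2 called 3 higher, beside 0.152% of all genes. Beyond the 3 chains above, the largest differences were those of the fibril chains Col1a2 and Col5a2. Col1a2 was at 3.90 CPM in unstressed GM medium and 1.55 CPM in unstressed M medium (0.94), yet at 2.46 CPM and 2.31 CPM in stressed GM and stressed M medium, and the fit did not call it (adjusted p = 0.30).

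Col5a2 stood at 84.8 CPM and 55.9 CPM in unstressed GM and unstressed M medium (0.59), and its partner Col5a1 at 233 CPM with GM medium and 169 CPM with M medium (0.47). The beaded-filament chains Col6a2 and Col6a1 followed at 0.51 and 0.35. Other chains with many reads differed less: Col3a1 by 0.20, and the basement membrane chains Col4a1 and Col4a2 by 0.06 and 0.13. The single chain below 0 was Col20a1, with 0 counts in GM medium and a level equal to the floor of 3 counts in M medium, 0.194 CPM, so no fold is given, beside 8.69 CPM in untreated cells. In stressed medium the collagen median was 0.13, with 11 of the 16 chains above 0, beside 48.5% of all genes. Markers of fibroblasts, which also make collagen, were compared alongside: 4 of 11 passed the minimum, their sum was 267 CPM with GM medium, 236 CPM with M medium and 375 CPM in untreated cells, and Acta2 and Tagln were at or near 0. All 4 were above 0, beside 52.1% of all genes. The edgeR fit called 2 of them higher, Pdgfra at 0.23 and Pdgfrb at 0.35 unstressed, beside 2.21% of all genes. With stressed medium 2 of the 4 markers were above 0, beside 48.5% of all genes, and DESeq2 called 0 of them. Their part in the collagen differences was not tested.

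**Figure D3:**
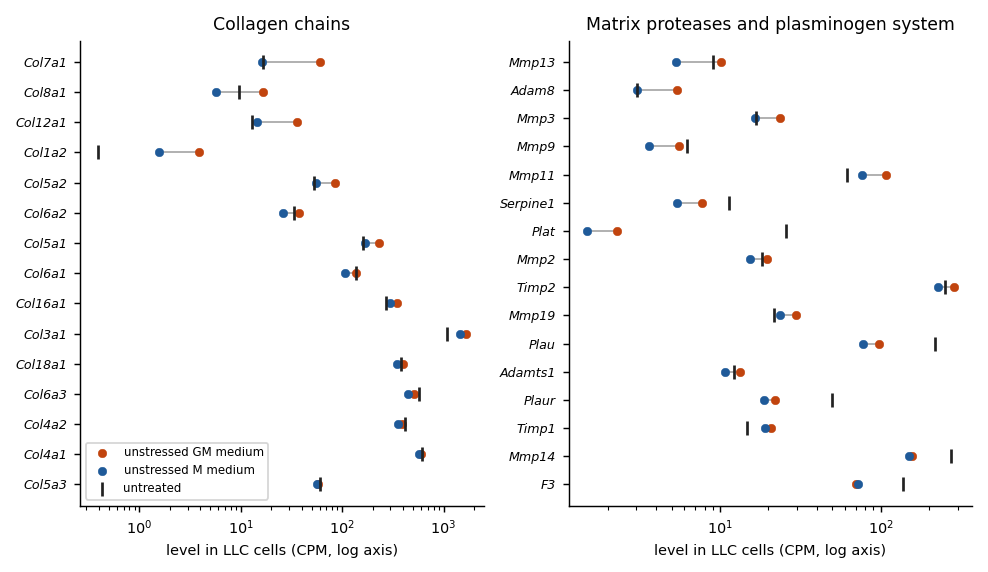
Levels in CPM, on a log axis, of the collagen chains (left) and of the matrix protease and plasminogen genes (right) in unstressed GM medium, unstressed M medium and untreated LLC cells, 1 library per symbol, ordered by the difference between the media. Col20a1 is not drawn, having 0 counts in GM medium. The GM symbol lies to the right of the M symbol in all rows but that of F3, with 60.1 CPM against 16.4 CPM for Col7a1.

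Genes that cut the matrix or hold such enzymes in check pointed the same way. Of 22 listed, 16 passed the minimum, 15 of the 16 were above 0, beside 52.1% of all genes, with a median of 0.32. The edgeR fit called 8 higher, beside 2.21% of all genes, and 0 lower, and DESeq2 called 0. Mmp13, a collagenase, had 10.1 CPM in unstressed GM medium and 5.29 CPM in unstressed M medium, 27.2 CPM and 6.03 CPM in stressed GM and stressed M medium, and 9.09 CPM in untreated cells. Only stressed GM medium set it well apart, and the unstressed fold was 1.92 (1.46 to 2.53). Mmp3, a stromelysin, and Mmp9, a gelatinase, showed unstressed differences of 0.50 each, beside stressed ones of 1.81 and 1.46. The edgeR calls for both thus rest mainly on the stressed pair. Adam8, a membrane-bound metalloprotease, differed by 0.66 with unstressed and by 0.66 with stressed medium, and the protease inhibitor gene Timp2 by 0.32 unstressed and 0.06 stressed. Plau, which encodes the urokinase that activates plasminogen, was at 97.0 CPM in GM medium and 77.7 CPM in M medium, both far under the 218 CPM of untreated cells.

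Matricellular proteins, which sit in the matrix and signal to cells, and fibronectin were mixed. Of 12 compared, 9 were above 0 (median 0.26), beside 52.1% of all genes. The edgeR fit called 5 higher and 1 lower, beside 2.21% and 2.32% of all genes, and DESeq2 called 0. Fn1, fibronectin itself, had 662 CPM in unstressed GM medium and 519 CPM in unstressed M medium, 434 CPM and 386 CPM in stressed GM and stressed M medium, and 663 CPM in untreated cells. GM medium left it at the untreated level, a ratio of 1.28 over M medium (1.24 to 1.31). Ccn4 (0.47) and the elastic-fibre glycoprotein Fbln2 (0.44) were higher with GM medium, whereas Thbs2, a thrombospondin, was lower, at 392 CPM with GM medium and 496 CPM with M medium (-0.34). Fbn1, the microfibril protein fibrillin, was outside the list and named for its size of difference: 89.5 CPM in unstressed GM medium and 46.4 CPM in unstressed M medium, 52.0 CPM and 37.3 CPM in stressed GM and stressed M medium, and 44.4 CPM in untreated cells. Its fold of 1.93 (1.76 to 2.11) rested on 1377 reads with GM medium and 719 with M medium.

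The activin and TGF-beta pathway, whose ligands drive matrix genes through SMAD transcription factors, differed at few points. Among 23 genes compared the median was 0.07, with 16 above 0, beside 52.1% of all genes. The edgeR fit called 4 higher and 1 lower, beside 2.21% and 2.32% of all genes. DESeq2 called 2 higher, beside 0.152% of all genes. The genes called by edgeR included feedback genes of the pathway. Skil, a SMAD corepressor, had 80.8 CPM in unstressed GM medium and 48.9 CPM in unstressed M medium. It had 85.6 CPM and 47.1 CPM in stressed GM and stressed M medium, and 63.2 CPM in untreated cells. Both GM libraries were above the untreated level and both M libraries below it, with an unstressed fold of 1.65 (1.51 to 1.81). Smad7, the inhibitory SMAD, differed by 0.40, and Ltbp1, which stores latent TGF-beta in the matrix, by 0.52. Fstl1, a follistatin-like glycoprotein, was at 109 CPM and 61.1 CPM in unstressed GM and unstressed M medium (fold 1.79, 1.65 to 1.94), and at 83.1 CPM and 50.4 CPM in stressed GM and stressed M medium. The ligand and receptor genes Tgfb1, Tgfb3, Tgfbr1 and Tgfbr2 stayed between -0.16 and 0.16, and Ltbp3 was lower, at -0.30.

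Untreated macrophages of both kinds, with 1 library each, differed in transcripts of several secreted proteins, in a table normalised apart from that of LLC cells. Whether they were the cultures that conditioned the media is not given in the sources used here. Inhba, the subunit of activin A, was at 87.5 CPM in untreated GM-BMDM and 0.322 CPM in untreated M-BMDM, and Il1a, an interleukin-1 cytokine, at 84.9 CPM in GM-BMDM and 0.429 CPM in M-BMDM. Tgfb1 was at 54.2 CPM in GM-BMDM and 50.3 CPM in M-BMDM. Fstl1 and Fn1 transcripts were likewise far higher in GM-BMDM, at 256 and 1205 CPM against 1.72 and 1.80 CPM in M-BMDM. Other secreted proteins had more transcripts in M-BMDM: Igf1 was at 479 CPM in GM-BMDM and 1248 CPM in M-BMDM, Tnf at 20.6 CPM in GM-BMDM and 40.5 CPM in M-BMDM, and Cxcl10 at 0.472 CPM in GM-BMDM and 24.5 CPM in M-BMDM. Whether any of these took part in the differences between LLC cultures was not tested.

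Chemokines gave a small set. Of 15 listed, 7 passed the minimum, and 5 were above 0 (median 0.21), beside 52.1% of all genes. The edgeR fit called 6 higher, beside 2.21% of all genes. DESeq2 called 1 higher, Ccl7, beside 0.152% of all genes. Ccl2, the main monocyte attractant, had 106 CPM in unstressed GM medium and 83.0 CPM in unstressed M medium, 145 CPM and 81.5 CPM in stressed GM and stressed M medium, and 219 CPM in untreated cells. All media were below the untreated level, and the unstressed ratio was 1.27 (1.18 to 1.37). Cx3cl1, the membrane-bound fractalkine, differed by 0.40. The neutrophil attractants Cxcl1, Cxcl2 and Cxcl5 differed by -0.06, 0.16 and 0.21 in unstressed medium but by 1.19, 0.97 and 2.22 in stressed medium, so that the fit's call for these 3 rests mainly on the stressed pair.

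Among cytokines and growth factors, 12 of 27 passed the minimum and 8 of them were above 0 (median 0.21), not far from the 52.1% of all genes. The edgeR fit called 2 higher, beside 2.21% of all genes, and DESeq2 called 0. Csf1, the growth factor on which macrophages depend, had 232 CPM in unstressed GM medium and 144 CPM in unstressed M medium, 255 CPM and 233 CPM in stressed GM and stressed M medium, and 202 CPM in untreated cells. Only unstressed M medium was below the untreated level, giving a ratio of 1.60 (1.52 to 1.69). Lif and Areg, ligands of gp130 and of the EGF receptor, were low in both media: Lif had 3.05 CPM with GM medium and 1.61 CPM with M medium, and Areg 3.18 CPM with GM medium and 1.81 CPM with M medium. Vegfa, an angiogenic factor, differed by 0.21. Il6, Il1b and Tnf were under the minimum.

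**Figure D4:**
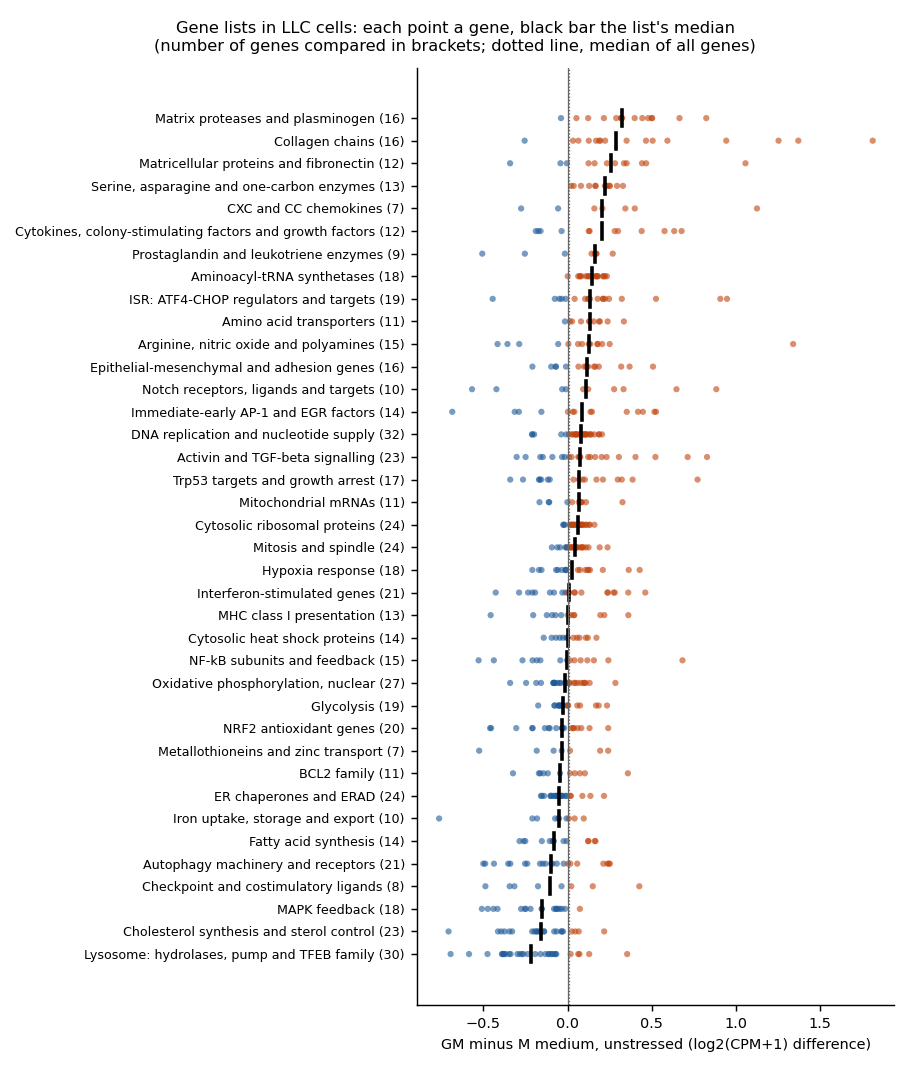
Difference between unstressed GM and M medium, as log2(CPM + 1), for the members of each gene list with at least 7 genes compared, ordered by list median. Each point is 1 gene, the black bar is the list's median, and the dotted line is the median of all genes, 0.01. Matrix lists lie at the top, with medians of 0.26 to 0.32, and the lysosome list at the bottom, at -0.21.

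Genes of the integrated stress response, in which the factors ATF4 and CHOP switch on amino acid supply, leaned to the side of GM medium in this unstressed pair. Of 19 compared, 14 were above 0 (median 0.13), beside 52.1% of all genes. The edgeR fit called 8 higher and 1 lower, beside 2.21% and 2.32% of all genes, and DESeq2 called 0. Fgf21, a stress-induced hormone, had 8.64 CPM in unstressed GM medium and 4.00 CPM in unstressed M medium, 12.2 CPM and 8.87 CPM in stressed GM and stressed M medium, and 3.89 CPM in untreated cells. Unstressed M medium left it at the untreated level, and the unstressed fold was 2.16 (1.59 to 2.97). Chac1, which degrades glutathione, was at 45.3 CPM and 31.2 CPM in unstressed GM and unstressed M medium (fold 1.45, 1.29 to 1.64), at 34.0 CPM and 31.2 CPM in stressed GM and stressed M medium, and at 9.62 CPM in untreated cells. All media were above the untreated level. Cebpb, a bZIP factor of stress and inflammation, was at 28.6 CPM in unstressed GM medium, 14.8 CPM in unstressed M medium and 32.8 CPM in untreated cells. Sesn2 and Trib3 differed by 0.32 and 0.22, Atf4 and Ddit3 (the CHOP gene) by 0.04 and -0.08, and Atf5 by -0.45.

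Enzymes of serine, asparagine and one-carbon synthesis, which the same response controls, were all above 0: 13 of 13, median 0.22, beside 52.1% of all genes. The edgeR fit called 6 of them higher, beside 2.21% of all genes, and DESeq2 called 0. Gpt2, a mitochondrial alanine aminotransferase, had 200 CPM in unstressed GM medium and 159 CPM in unstressed M medium, 198 CPM and 157 CPM in stressed GM and stressed M medium, and 111 CPM in untreated cells. Mthfd2 of the mitochondrial folate cycle, Psat1 and Phgdh of serine synthesis, and Asns, the asparagine synthetase, differed by 0.29, 0.25, 0.25 and 0.22. Amino acid transporters were above 0 in 10 of 11 (median 0.13) and tRNA synthetases in 18 of 18 (median 0.14, from 0.00 to 0.23), and the fit called 1 higher in each list, Slc1a4 and Mars1. ER chaperones and degradation factors leaned the other way by a small amount, with 19 of 24 below 0, beside 47.9% of all genes, and a median of -0.05. Hspa5, the chaperone BiP, had 1158 CPM in GM medium and 1206 CPM in M medium, and the fit called none of the 24.

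Promoters of the stress genes were read from RefSeq (GRCm38.p6, 250 bases before to 50 after the start) for the letters TTGCATCA of a composite ATF4-C/EBP element, on both strands. It was present in 4 of 17 stress genes with a promoter in the table, 1 of 12 serine and one-carbon enzymes, 2 of 7 transporters and 4 of 11 tRNA synthetases, against 0.733% of all compared genes with a promoter. The stretches of the 2 largest differences among them are shown, with the matching letters in capitals, 5' to 3' on the gene's strand. They come from chr2:119351033-119351072 (plus strand) and chr7:45615606-45615645 (minus strand).
Chac1: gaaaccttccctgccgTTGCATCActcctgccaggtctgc
Fgf21: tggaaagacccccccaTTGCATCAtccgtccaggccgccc
A match is a run of letters and not a measured binding site. Of the 4 stress genes that hold it, Fgf21 and Chac1 differed by 0.95 and 0.53, while Nupr1 and Atf3 differed by 0.10 and -0.04.

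Genes at least 2-fold lower in GM medium numbered 7, most of them resting on few reads. That they are fewer than the 14 higher ones holds for this threshold and a pseudocount of 1, since at 1.5-fold the lower genes were the more numerous, as they were at 2-fold with a pseudocount of 0.25 (40 lower and 36 higher). Chrnd, a subunit of the muscle acetylcholine receptor, had 2.14 CPM in unstressed GM medium and 7.87 CPM in unstressed M medium, 3.21 CPM and 6.51 CPM in stressed GM and stressed M medium, and 8.89 CPM in untreated cells. Both GM libraries were below the other 3, and the level was 3.67-fold lower (2.48 to 5.57). Agt, the angiotensin precursor, had 1.95 CPM and 5.55 CPM in unstressed GM and unstressed M medium, 2.14 CPM and 5.14 CPM in stressed GM and stressed M medium, and 18.6 CPM in untreated cells. Again the GM libraries were the lowest, by 2.85-fold (1.86 to 4.47) between the unstressed media.

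Palm3, a paralemmin, had 1.04 CPM and 4.26 CPM in unstressed GM and unstressed M medium. It had 1.13 CPM and 1.24 CPM in stressed GM and stressed M medium, and 2.44 CPM in untreated cells. Unstressed M medium was thus above the untreated level, and the other media were below it. Rgs9, a regulator of G-protein signalling, had 0.845 CPM in unstressed GM medium and 2.71 CPM in unstressed M medium, and Iqcd, an IQ-motif protein, 0.455 CPM in GM medium and 1.94 CPM in M medium. Tmem74 had 1.10 CPM and 3.29 CPM in unstressed GM and unstressed M medium, and 5.29 CPM and 4.08 CPM in stressed GM and stressed M medium. Its order was thus turned round between the pairs. Flt3l, a growth factor for dendritic cells, rested on 3 reads with unstressed GM medium and 22 with unstressed M medium. Of the 7 genes, 5 were also below 0 in stressed medium, beside 51.5% of all genes, and 0 reached -1, beside 0.0536% of all genes, the edgeR fit called 4 lower, and DESeq2 called 0.

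Just under the 2-fold line were better measured genes. Plekha6 had 11.2 CPM in unstressed GM medium and 23.2 CPM in unstressed M medium, 9.38 CPM and 18.4 CPM in stressed GM and stressed M medium, and 19.4 CPM in untreated cells. Cd38, an ectoenzyme that consumes NAD, had 67.5 CPM and 123 CPM in unstressed GM and unstressed M medium, 53.0 CPM and 95.8 CPM in stressed GM and stressed M medium, and 207 CPM in untreated cells. Sned1, a matrix protein, had 171 CPM and 315 CPM in unstressed GM and unstressed M medium, 112 CPM and 191 CPM in stressed GM and stressed M medium, and 238 CPM in untreated cells. For these 3 genes the GM library was about as far below the M library with stressed as with unstressed medium, at differences of -0.99, -0.85 and -0.87 unstressed and -0.90, -0.84 and -0.75 stressed. They were also among the 14 genes that DESeq2 called lower, with adjusted p of 0.034, 3.7e-11 and 5.8e-16. That fit holds both pairs and has 1 residual degree of freedom, so these p-values are no independent check of either pair. Insig1 and Tfrc, described below, are well measured too, and their media lay closer together in the stressed pair.

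Lysosomal genes were the list with the most members called lower in GM medium by the fit. Lysosomes digest material delivered by endocytosis and autophagy, and transcription factors of the TFEB family set the level of their hydrolases, membrane proteins and proton pump through the CLEAR element. Of 30 genes compared, 25 were below 0 with a median of -0.21, beside 47.9% of all genes below 0. The fit called 15 lower and 0 higher, beside 2.32% and 2.21% of all genes. Both media were under the untreated level for most of them, with 28 of 30 lower in GM medium (median -0.52) and 29 of 30 lower in M medium (median -0.25). Of all 11190 genes, 5251 were below the untreated level in GM medium and 5301 in M medium. These comparisons share the untreated library.

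Gpnmb, a lysosomal membrane glycoprotein, had 413 CPM in unstressed GM medium and 669 CPM in unstressed M medium, 524 CPM and 732 CPM in stressed GM and stressed M medium, and 783 CPM in untreated cells. GM medium was the lower in both pairs, by 1.62-fold (1.57 to 1.67) unstressed. Neu1, the lysosomal sialidase, had 21.2 CPM and 32.4 CPM in unstressed GM and unstressed M medium, 28.7 CPM and 37.2 CPM in stressed GM and stressed M medium, and 72.2 CPM in untreated cells. Tpp1, a peptidase, had 123 CPM and 172 CPM in unstressed GM and unstressed M medium but 131 CPM and 134 CPM in stressed GM and stressed M medium. The membrane proteins Lamp1 and Lamp2 differed by -0.34 and -0.35, and the proteases Ctsd and Ctsa by -0.39 and -0.38. Subunits of the proton pump went along, with Atp6v0d1 at -0.39, Atp6v1h at -0.38, Atp6ap1 at -0.30 and Atp6v1a at -0.28. DESeq2 called Gpnmb, Lamp1 and Lamp2 lower. The summed macrophage markers had the same order as these genes, at 15.5 CPM with unstressed GM medium, 19.3 CPM with unstressed M medium and 26.3 CPM in untreated cells. With stressed medium their order was turned round, at 21.5 CPM with GM medium and 20.6 CPM with M medium. Most of the sum was Cd14, at 10.9 CPM with unstressed GM medium, 13.0 CPM with unstressed M medium and 16.8 CPM in untreated cells. The lysosomal glycoprotein gene Cd68 among the markers had 0.520 CPM with unstressed GM medium, 1.68 CPM with unstressed M medium and 2.77 CPM in untreated cells. The defining markers Adgre1 and Ptprc were at 0 in all 3, and the part of other cells in the lysosomal differences was not tested further.

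The regulators themselves did not share this direction, since Mitf, Tfeb and Tfe3 differed by 0.35, 0.06 and 0.02. In stressed medium the lysosomal median was -0.10, with 22 of 30 below 0, beside 51.5% of all genes. Genes of the folliculin complex and of its GTPase, which control TFEB by way of amino acid sensing, were among the lower ones. Flcn had 51.3 CPM in unstressed GM medium and 73.0 CPM in unstressed M medium, Fnip1 had 75.2 CPM with GM medium and 102 CPM with M medium, and Rragd had 2.47 CPM with GM medium and 3.87 CPM with M medium. The autophagy list as a whole was mixed, with 14 of 21 below 0, beside 47.9% of all genes, and a median of -0.10. The edgeR fit called 4 of the 21 lower, beside 2.32% of all genes, and 0 higher, and DESeq2 called 0. The 4 were Flcn, Fnip1, the cargo receptor Sqstm1 and the ATG8-family gene Gabarap.

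The CLEAR letters TCACGTGA, a palindrome, were present in the promoter window of 6 of 24 lysosomal genes with a promoter in the table, of 1 of 17 autophagy genes, and of 2.24% of all compared genes with one. All 6, which are Ctsa, Ctsd, Gla, Mcoln1, Atp6v0d1 and Atp6v1a, were below 0, between -0.39 and -0.24, while Atg3 of the autophagy list, which also holds it, was at 0.25. Of all 30 lysosomal genes compared, with or without the letters, 25 were below 0. A part of the element in the differences was not tested. Of the 6, the 4 with the letters and their surroundings wholly before the start are shown, the element in capitals, 5' to 3' on the gene's strand. They lie at chr7:142387903-142387942 (minus strand), chrX:134601210-134601249 (minus strand), chr8:3500457-3500496 (plus strand) and chr16:44139368-44139407 (minus strand) of GRCm38.p6.
Ctsd: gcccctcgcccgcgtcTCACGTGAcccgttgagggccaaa
Gla: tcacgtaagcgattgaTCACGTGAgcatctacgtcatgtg
Mcoln1: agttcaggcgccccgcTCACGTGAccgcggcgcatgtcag
Atp6v1a: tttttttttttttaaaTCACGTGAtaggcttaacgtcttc
These are letter matches and no binding was measured. Ctsd stood at 85.1 CPM in unstressed GM medium and 112 CPM in unstressed M medium, and Gla, an alpha-galactosidase, at 20.2 CPM with GM medium and 24.0 CPM with M medium. Mcoln1, a calcium channel, stood at 47.0 CPM with GM medium and 61.0 CPM with M medium, and Atp6v1a at 155 CPM with GM medium and 189 CPM with M medium.

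**Figure D5:**
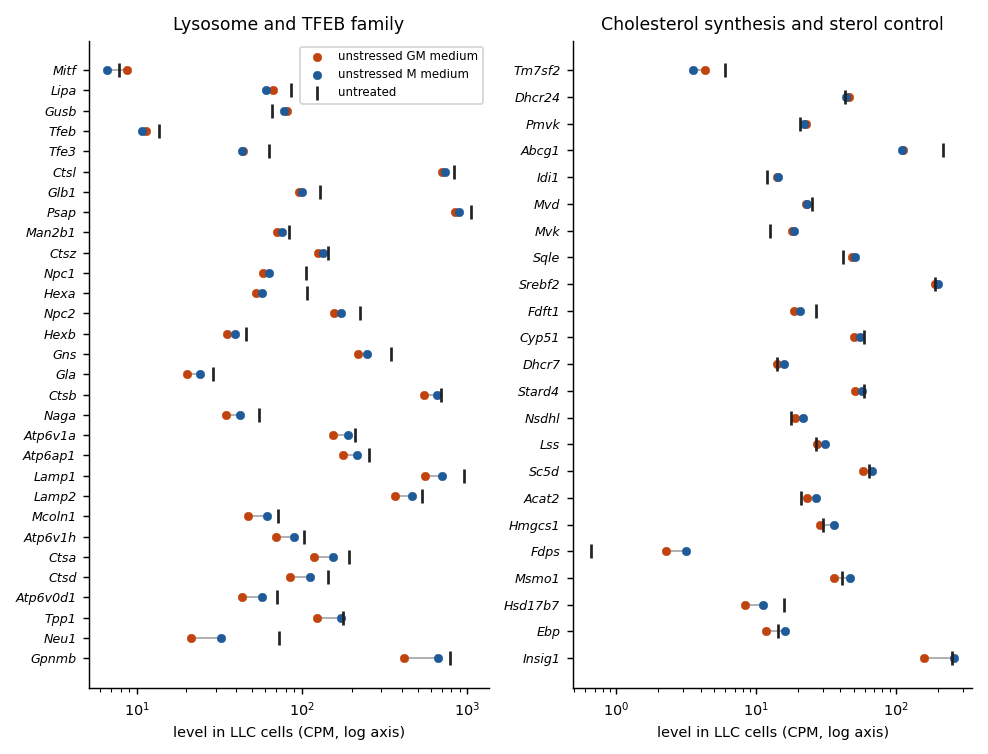
Levels in CPM, on a log axis, of lysosomal and TFEB-family genes (left) and of cholesterol genes (right) in unstressed GM medium, unstressed M medium and untreated LLC cells, 1 library per symbol, ordered by the difference between the media. In the left panel 25 of 30 GM symbols lie left of the M symbol, and 29 of 30 M symbols lie left of the untreated bar. In the right panel the media differ most for Insig1, at 159 CPM with GM medium and 261 CPM with M medium.

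Genes of sterol metabolism leaned below 0 by a small amount. Cells sense their cholesterol through the INSIG and SREBP proteins, which turn on synthesis and uptake genes when sterols are short. Of 23 genes compared, 19 were below 0, beside 47.9% of all genes, with a median of -0.16. The edgeR fit called 3 lower, beside 2.32% of all genes, and 0 higher, and DESeq2 called 0. Insig1 had 159 CPM in unstressed GM medium and 261 CPM in unstressed M medium, 186 CPM and 237 CPM in stressed GM and stressed M medium, and 251 CPM in untreated cells. Unstressed M medium left it near the untreated level, and the ratio was 1.64-fold lower in GM medium (1.56 to 1.72). The other called genes were Ebp and Msmo1 of the late synthesis steps (-0.41 and -0.37). Srebf2, which encodes an SREBP factor, differed by -0.08. The sterol regulatory letters TCACNCCAC were in 1 of 17 promoters of the list and in 1.40% of all compared genes with a promoter. Fatty acid synthesis genes had a median of -0.08, with Scd1 at -0.25.

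Single genes of iron and metal handling stood out from lists near 0. Tfrc, the transferrin receptor, had 208 CPM in unstressed GM medium and 354 CPM in unstressed M medium, 343 CPM and 431 CPM in stressed GM and stressed M medium, and 294 CPM in untreated cells. Unstressed GM medium was the lowest of the 5, at 1.70-fold below M medium (1.63 to 1.78). Fth1, the ferritin heavy chain, was lower by a smaller step, at 3614 CPM with GM medium and 4099 CPM with M medium (-0.18), and the median of the 10 iron genes was -0.05. Mt1, a metallothionein that binds zinc and copper, had 83.0 CPM with GM medium and 120 CPM with M medium (-0.53). Among 20 NRF2 antioxidant genes (median -0.03), the edgeR fit called Gstm1 and Osgin1 lower, at -0.46 and -0.45, beside 2.32% of all genes. DESeq2 called only Gstm1.

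Feedback genes of the MAP kinase pathway, which are switched on by ERK activity and then restrain it, were below 0 in 17 of 18, beside 47.9% of all genes, with a median of -0.15. The edgeR fit called 4 lower, beside 2.32% of all genes, and DESeq2 called 0. With stressed medium 12 of the 18 were below 0, not far from the 51.5% of all genes. Dusp1, a nuclear MAP kinase phosphatase, had 20.1 CPM in unstressed GM medium and 29.1 CPM in unstressed M medium, 20.1 CPM and 25.6 CPM in stressed GM and stressed M medium, and 114 CPM in untreated cells. Dusp4, Spry4 and Dusp6, the other called genes, differed by -0.42, -0.22 and -0.15. Immediate-early factors did not follow as a group, with 10 of 14 above 0, beside 52.1% of all genes, and a median of 0.09. Their differences ran from -0.69 to 0.53. The edgeR fit called 4 of them higher, beside 2.21% of all genes, and DESeq2 called 0. Myc had 376 CPM in unstressed GM medium and 261 CPM in unstressed M medium, 525 CPM and 464 CPM in stressed GM and stressed M medium, and 300.3 CPM in untreated cells, a ratio of 1.44 between the unstressed media. The AP-1 genes Fosl2, Fosl1 and Junb were higher with GM medium, at 0.52, 0.45 and 0.42, and Jun was at 0.00. The edgeR fit did not call Fosl1 (adjusted p = 0.14).

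Other signalling genes differed singly. Gadd45a, a growth-arrest gene, had 40.2 CPM in unstressed GM medium and 23.1 CPM in unstressed M medium, 59.3 CPM and 48.7 CPM in stressed GM and stressed M medium, and 50.5 CPM in untreated cells, while the median of 17 p53-related genes was 0.07. Bcl3, a nuclear NF-kB cofactor, had 5.78 CPM with GM medium and 3.23 CPM with M medium, whereas the inhibitor of apoptosis Birc3 had 6.76 CPM with GM medium and 10.2 CPM with M medium, and the median of the NF-kB list was near 0. The receptor gene Notch1 had 9.03 CPM and 13.9 CPM in unstressed GM and unstressed M medium, 4.41 CPM and 9.99 CPM in stressed GM and stressed M medium, and 33.3 CPM in untreated cells, lower with GM medium in both pairs. Itgb5, an integrin beta chain, had 206 CPM and 144 CPM in unstressed GM and unstressed M medium, 194 CPM and 135 CPM in stressed GM and stressed M medium, and 134 CPM in untreated cells.

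Lists of cell growth differed little between the media. DNA replication genes were above 0 in 27 of 32, beside 52.1% of all genes. Their median was only 0.08, the fit called none, and their stressed median was -0.01. Both media were above the untreated library for all 32 genes, with medians of 0.78 in GM medium and 0.71 in M medium. Of all 11190 genes, 5939 were above it in GM medium and 5889 in M medium. Mitosis genes had a median of 0.04, cytosolic ribosomal proteins of 0.06 and mitochondrial mRNAs of 0.07. Replication-dependent histones, of which 6 of 19 passed the minimum, had a median of 0.14. Interferon-stimulated genes, MHC class I, cytosolic heat shock proteins, glycolysis, hypoxia, BCL2-family and nuclear oxidative phosphorylation genes had medians between -0.04 and 0.03. Checkpoint and costimulatory ligands had a median of -0.11 over 8 genes, prostaglandin and leukotriene enzymes 0.16 over 9, and epithelial-mesenchymal and adhesion genes 0.11 over 16. Genes of arginine, nitric oxide and polyamines had a median of 0.13 over 15, with Ass1 at the top and Sat1, which breaks down polyamines, at -0.42.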

How the data were processed

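The authors deposited, per the file headers, 1 table for LLC cells and 1 for macrophages, each with a raw count and an FPKM value per gene and library. The deposited FPKM equals the count divided by gene length and total, within 5e-07 for LLC cells and 4.9e-06 for macrophages. Counts summed to 15020068 to 17128471 per LLC library. The submitters' processing notes name cutadapt 1.15, HISAT2 and TopHat2 2.1.0 without roles. The counter, its strand setting and the build are not given in the sources used here, so overlapping or antisense genes cannot be told apart, and genes with near-identical copies (Gstm1, Fth1) are uncertain. Coordinates equal those of GENCODE M21 (GRCm38) for 99.1% of shared gene IDs.

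CPM were computed from the deposited counts with TMM scaling (edgeR 4.0.16, R 4.3.3), and differences as log2(CPM + 1), that is with a pseudocount of 1, which understates the differences of low genes. Genes needed a mean of 1 CPM. Folds carry exact Clopper-Pearson 95% intervals, and reads without molecular identifiers are not independent molecules. The floor of 3 counts is 0.195 CPM in GM medium. The fit across libraries used edgeR's quasi-likelihood test, adjusted over all genes by Benjamini-Hochberg, with DESeq2 1.42.0 and limma 3.58.1 as alternatives. Figures used matplotlib 3.10.9. Named genes were the 15 largest differences each way with at least 5 CPM in either library, list members at 2-fold, and up to 4 members per list with the largest difference; others were chosen after their values were seen. The members and the 47 gene lists were chosen with earlier results of these data known. Some genes of the lysosomal and sterol lists are not reported here.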

Additional observations from a re-analysis of the deposited data

Results flagged for a closer look

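For 3 flagged genes the difference between GM and M medium, as log2(CPM + 1), pointed one way in the unstressed pair of LLC libraries and the other way in the stressed pair. Such a change was common, since only 58.5% of all 11190 genes compared shared the sign between the pairs. With 1 library in each group, the change of direction was not tested. Tmem74 was at -1.03 unstressed and 0.31 stressed. Flt3l was at -1.02 unstressed and 0.37 stressed, and its unstressed value rested on 3 reads with GM medium and 22 with M medium. Notch3, a NOTCH receptor gene, was at 0.88 unstressed and -0.68 stressed, and its unstressed value rested on 24 reads with GM medium and 6 with M medium. It had 1.56 CPM in unstressed GM medium and 0.387 CPM in unstressed M medium, 0.252 CPM in stressed GM medium and 1.01 CPM in stressed M medium, and 1.98 CPM in untreated cells.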

How the results depend on the processing

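The number of genes at 2-fold followed the pseudocount: with 0.25 it was 36 higher and 40 lower in GM medium, which include the 14 and the 7, and with 5 it was 4 and 0. A minimum mean of 5 CPM left 2 of the 7 lower genes and 10 of the 14 higher ones. The same choices moved the 1.5-fold counts of 101 and 113, to 177 and 202 with a pseudocount of 0.25, to 22 and 23 with 5, and to 41 and 45 with a minimum of 5 CPM. In the fit, DESeq2 called 17 higher and 14 lower where edgeR called 247 and 260. Total-count scaling, no minimum, leaving out the untreated library and limma-voom kept the edgeR counts within 1.5 times. All 250 alternative values of the list medians, and 796 of those for named genes, stayed within the limits set for them. A further 8 for named genes moved in size and none changed direction. The median of all genes lay between -0.01 and 0.01 under the settings tried. The 1.5-fold counts and their alternatives were chosen after seeing the data. No paired analysis was possible because each group has 1 library and the labels give no replicate numbers, and no replicate could be left out. Depth limits the low genes: of the 14 higher genes 11 reached 5 CPM in either library, and of the 7 lower ones 2 did.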

Other observations

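Several genes that belong to none of the lists were called by both edgeR and DESeq2 in the fit over all LLC libraries, and they were chosen here after their values were seen. Those higher with GM medium included Sertad4, Lrp1, Axl, Gpc1, Ptgfrn, Steap2 and Lamb1. Lrp1, a large endocytic receptor, had 949 CPM in unstressed GM medium and 721 CPM in unstressed M medium, 679 CPM in stressed GM medium and 574 CPM in stressed M medium, and 801 CPM in untreated cells (DESeq2 adjusted p = 0.0024). Axl, a receptor tyrosine kinase, had 406 CPM and 321 CPM in unstressed GM and unstressed M medium, 354 CPM and 291 CPM in stressed GM and stressed M medium, and 324 CPM in untreated cells (DESeq2 adjusted p = 0.024). Gpc1, a heparan sulfate proteoglycan, and Ptgfrn, a membrane partner of tetraspanins, differed by 0.43 and 0.56 unstressed and by 0.25 and 0.37 stressed. The laminin chain gene Lamb1 differed by 0.34 unstressed and 0.26 stressed.

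Lower with GM medium was Tns1, which links actin to integrins, with 107 CPM and 177 CPM in unstressed GM and unstressed M medium, 92.6 CPM and 125 CPM in stressed GM and stressed M medium, and 251 CPM in untreated cells (DESeq2 adjusted p = 6.6e-05). Dmxl1, whose product is tied to the assembly of the vacuolar proton pump, had 526 CPM and 707 CPM in unstressed GM and unstressed M medium, 460 CPM and 608 CPM in stressed GM and stressed M medium, and 721 CPM in untreated cells (DESeq2 adjusted p = 6.5e-07). Sntb2, a syntrophin, and Tinagl1, a secreted matrix protein, differed by -0.34 and -0.44 unstressed and by -0.30 and -0.40 stressed. For each of the genes named here the difference had the same sign in both pairs. Choosing them by a fit over both pairs favours this. The p-values come from a fit that holds the unstressed libraries and has 1 residual degree of freedom.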
